A study of Homo sapiens with 6 samples.

Results

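The proteasome genes described here were the 48 protein coding genes, of 20163 in GENCODE, whose symbol has the form PSMA to PSMG followed by a number. A gene was scored by the native ChIP-Seq (nChIP-Seq) peaks that lay within 1 kb of the transcription start site (TSS) of its canonical transcript. H3K4me3, the trimethylation of lysine 4 of histone H3 that marks active promoters, was found at 46 of the 48 TSSs, and these 46 were compared with the 12147 other protein coding TSSs that carried the mark in the same cells.

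All libraries came from U2OS cells, a human osteosarcoma line, collected 2 days past confluence. MMP-2 is a secreted protease that is also found in nuclei. In the ProMMP2-3xHA line its proenzyme, followed by 3 HA tags, is made at all times from a stable transgene, in addition to the MMP-2 of U2OS itself. WT cells have no tagged protein. The 6 samples formed 4 groups: HA in ProMMP2-3xHA cells (3 replicates, from independent biological experiments), HA in WT cells, H3K4me3 in ProMMP2-3xHA cells and H3K4me3 in WT cells (1 library each). Nucleosomes were released with micrococcal nuclease and precipitated without crosslinking, so an HA peak is a stretch of DNA whose nucleosomes were recovered with tagged MMP-2 more often than in the control. By the names of their lists, the HA replicates were called against an HA control precipitation. Whether this was the single WT HA library, shared by all 3 replicates, is not given in the sources used here, and the SDs below would not contain the error of a shared control. Whether the tagged protein sits where untagged MMP-2 does was not tested.

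The proteasome degrades proteins that carry chains of ubiquitin. Its 20S core is a barrel whose outer rings are built of alpha subunits (PSMA genes) and whose inner rings are built of beta subunits (PSMB genes), some of which hold the protease sites. The 19S regulatory particle binds, unfolds and feeds in substrates with a ring of ATPases (PSMC genes) and a set of other subunits (PSMD genes), and further genes encode activators (PSME), an inhibitor (PSMF) and chaperones that assemble the core (PSMG). Their transcription is known to be raised together by the factor NFE2L1, which binds antioxidant response elements.

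The DNA under the most reproducible HA summits is shown for 3 promoters whose window held no untranslated sequence. Each window is as long as the shortest peak that the authors allowed and is written on the gene's own strand 5′ to 3′ in GRCh37. Capitals run from the first to the last of the summits of the 3 replicates. The PSMA4 window is chr15:78832548-78832694 on the plus strand, the PSMG3 window is chr7:1609794-1609940 on the minus strand, and the PSME2 window is chr14:24616280-24616426 on the minus strand.
PSMA4: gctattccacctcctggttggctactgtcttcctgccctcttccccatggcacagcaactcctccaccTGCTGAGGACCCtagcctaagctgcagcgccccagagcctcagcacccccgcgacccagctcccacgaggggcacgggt
PSMG3: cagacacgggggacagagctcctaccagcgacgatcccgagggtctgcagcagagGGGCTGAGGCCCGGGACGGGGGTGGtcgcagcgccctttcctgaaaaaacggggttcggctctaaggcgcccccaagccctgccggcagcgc
PSME2: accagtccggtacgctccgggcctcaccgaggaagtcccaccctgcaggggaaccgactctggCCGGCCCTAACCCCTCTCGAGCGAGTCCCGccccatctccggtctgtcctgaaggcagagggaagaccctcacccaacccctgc
The summits of the 3 replicates spanned 11 bases at PSMA4, 24 at PSMG3 and 29 at PSME2, and all of them lay upstream of the member's TSS. That shared side cannot be read as a pattern, because leaving out untranslated sequence removes windows just past a TSS. PSMC5 and PSMD7 were left out in this way, with summits downstream of the TSS that spanned 15 and 23 bases. PSME4 and PSMG2 were also left out, with upstream summits that spanned 15 and 19 bases.

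A second set shows promoters with the core of the antioxidant response element. Each is the 150 bases before the TSS, 5′ to 3′ on the plus strand of GRCh37, with matches to TGACNNNGC on either strand in capitals. PSMB3 (chr17:36908844-36908993), PSMD3 (chr17:38136910-38137059) and PSMD9 (chr12:122326546-122326695) had a merged HA peak within 1 kb, whereas PSMB6 (chr17:4699309-4699458) had no HA peak in any list. The merged peaks of PSMB3 and PSMD3 ended at 36908720 and 38136687, before the printed bases. That of PSMD9 began at 122326747, past them, so none of the printed bases lay under a merged peak.
PSMB3: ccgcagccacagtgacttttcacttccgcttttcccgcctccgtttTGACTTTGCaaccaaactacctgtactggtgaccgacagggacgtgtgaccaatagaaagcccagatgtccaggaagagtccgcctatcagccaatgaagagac
PSMD3: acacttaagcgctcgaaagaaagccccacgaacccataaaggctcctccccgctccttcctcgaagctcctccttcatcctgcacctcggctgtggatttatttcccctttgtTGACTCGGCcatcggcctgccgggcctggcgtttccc
PSMD9: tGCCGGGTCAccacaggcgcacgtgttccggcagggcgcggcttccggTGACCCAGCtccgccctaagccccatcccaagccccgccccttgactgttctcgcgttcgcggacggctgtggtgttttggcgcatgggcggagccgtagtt
PSMB6: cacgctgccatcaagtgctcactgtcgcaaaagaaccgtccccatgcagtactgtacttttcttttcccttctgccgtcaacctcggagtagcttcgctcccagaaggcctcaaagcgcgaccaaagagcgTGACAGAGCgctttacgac
The match began 104 bases before the TSS of PSMB3, 37 before that of PSMD3 and 19 before that of PSMB6, and PSMD9 held 2 matches, 149 and 102 bases before its TSS.

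To examine how often MMP-2 resided at these promoters, the HA lists were intersected with the 46 TSSs that carried H3K4me3. The list of merged replicates placed HA at 28 of the 46 (60.9%, 95% exact interval 45.4 to 74.9), beside 49% of the other TSSs with H3K4me3. The interval, which covers counting error only, includes the share of the other TSSs. In the separate lists HA was found at 17 members in replicate 1 (37%, interval 23.2 to 52.5), 24 in replicate 2 (52.2%, interval 36.9 to 67.1) and 30 in replicate 3 (65.2%, interval 49.8 to 78.6). The same lists reached 35.5%, 47.9% and 49.7% of the other TSSs. Only the interval of replicate 3 lay above the share of the other TSSs, by a margin of under 1 percentage point, and the distance between members and others ranged from 1.43 percentage points in replicate 1 to 15.5 in replicate 3. No test was run on these shares, because genes that share a library are not replicates. The intervals treat the genes as independent, so their position against a share is not a test of a difference.

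**Figure D1:**
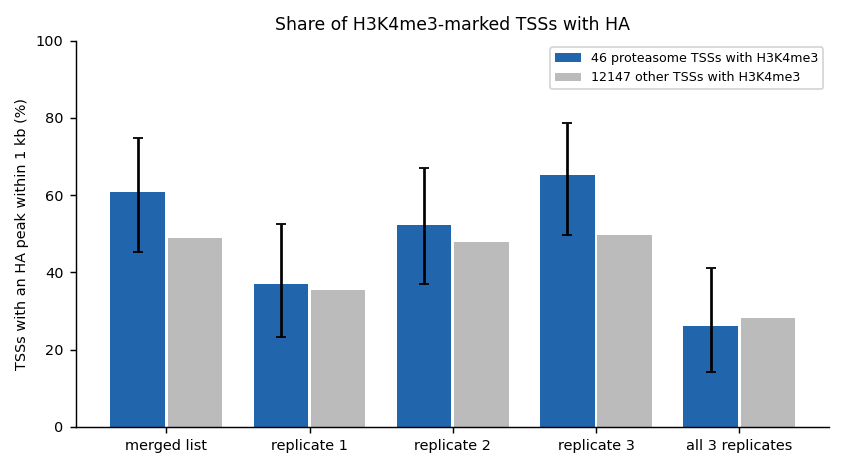
Percentage of TSSs with H3K4me3 that had an HA peak within 1 kb, for the merged list, each replicate and all 3 replicates together. Blue bars are the 46 proteasome TSSs with 95% exact binomial intervals, grey bars the 12147 other TSSs; members stood at 60.9% against 49% in the merged list and at 26.1% against 28.3% in all 3 replicates.

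HA was found in every replicate at 12 members (26.1%, interval 14.3 to 41.1), beside 28.3% of the other TSSs, and in no replicate at 13 members (28.3%, interval 16 to 43.5), beside 39.2% of the others. The most frequent outcome at members lay between these: 14 of them (30.4%) had a peak in exactly 2 replicates, beside 15.7% of the other TSSs, and 7 (15.2%) in exactly 1, beside 16.7%. The replicates missed different members. A peak was present in replicate 3 but not in replicate 1 at 14 members and the reverse at 1 member. The other TSSs were not counted in this way, but replicate 3 also reached more of them than replicate 1, 49.7% against 35.5%. Replicate 1 had the fewest peaks of the genome (6401, against 9193 and 8933 in replicates 2 and 3) while its HA coverage, recovered from the peak statistics, was 4.74 fragments per base, against 4.34 and 4.23. The part of these differences in the members' calls was not tested. Of the 28 merged peaks at members, 12 overlapped a peak of all 3 replicates, 12 a peak of 2, 3 a peak of 1, and 1 (PSMB1) a peak of none. Merged peaks at the other TSSs were not split in this way.

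**Figure D2:**
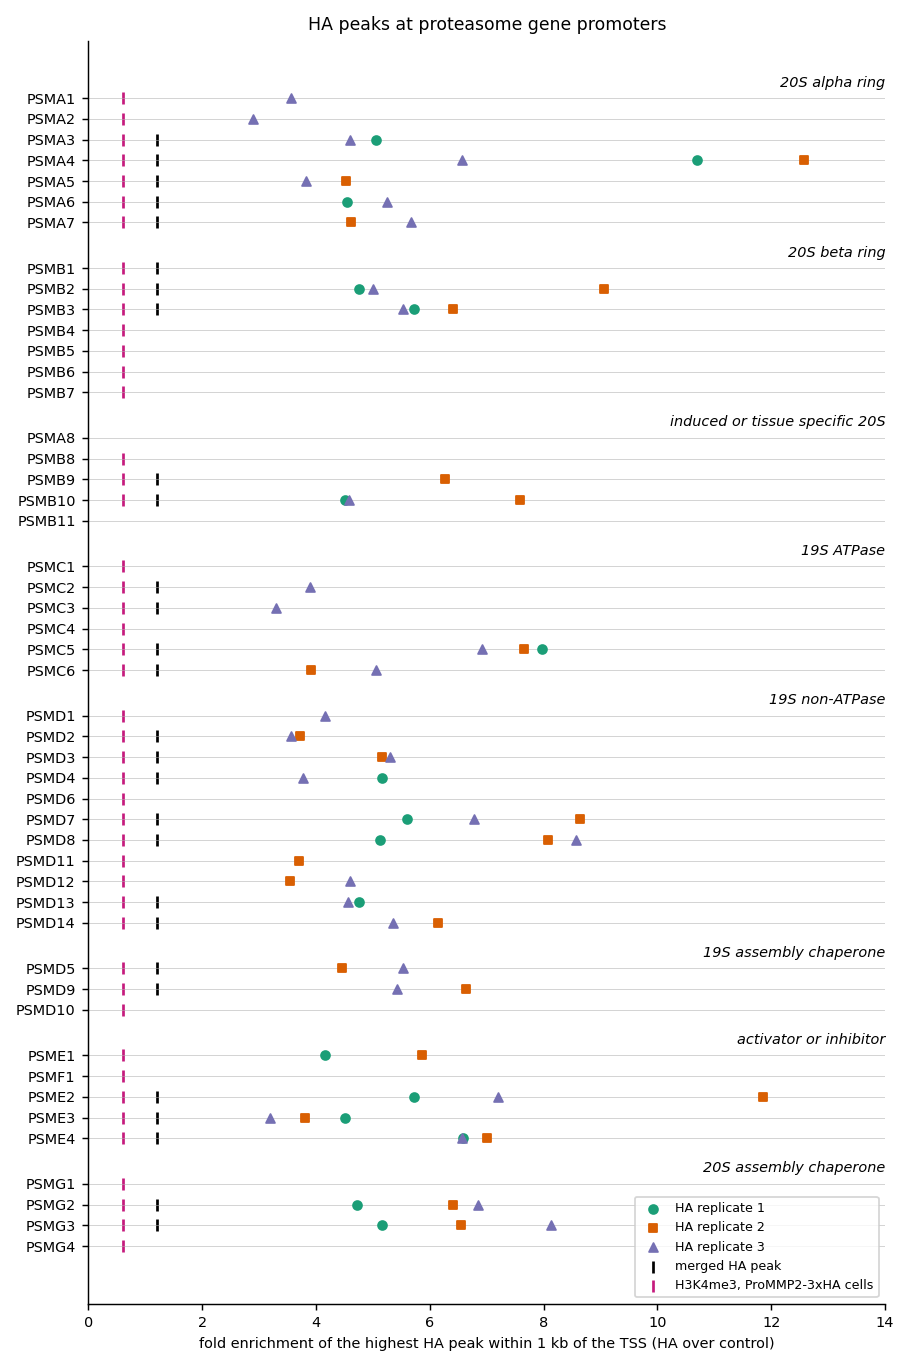
Fold enrichment (HA over control, linear axis) of the highest HA peak within 1 kb of each of the 48 TSSs, 1 point per replicate in which a peak was called, with genes grouped by role. Black ticks mark a merged HA peak and pink ticks H3K4me3 in ProMMP2-3xHA cells; PSMA4 reached 12.6 in replicate 2 while PSMB4, PSMB5, PSMB6 and PSMB7 have no point.

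The strength of a peak is given as its fold enrichment. This is the HA pileup at the summit, scaled to the control's depth, over the local control, each with a pseudocount of 1. Fragment counts at summits are given before that scaling. Among members with a peak the median was 5.12 in replicate 1 (range 4.16 to 10.7), 6.33 in replicate 2 (3.54 to 12.6) and 5.16 in replicate 3 (2.89 to 8.58). The medians of the other TSSs with H3K4me3 and a peak were 4.98, 5.68 and 5.01. The ratio of members to others was 1.03, 1.12 and 1.03, with a mean of 1.06 ± 0.0503 (SD, n = 3). The members' medians were thus above those of the others in every replicate, by a margin close to the spread between replicates. The recovered HA fragments at the summit did not follow that order in every replicate. Their medians were 44, 49.5 and 46 at members and 51, 52 and 45 at the others. The median local background was 1.64, 2 and 2 control fragments at members and 2 in each replicate at the others. The fold enrichments rest on few fragments: between 27 and 115 at the summits of members. The 95% exact Poisson intervals of these counts are 17.8 to 39.3 and 94.9 to 138. At the background of the whole genome the lowest fold enrichment called was 3.92, 3.61 and 3.73 in replicates 1, 2 and 3, and a promoter without a peak may hold HA below such a level.

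The 7 alpha subunits of the 20S core form the outer rings that gate the barrel. All 7 had H3K4me3 and 5 had a merged HA peak. A peak was found at all 7 in replicate 3, at 3 in replicate 1 and at 3 in replicate 2. Counts by role, here and below, stand beside the shares of the other TSSs with H3K4me3. Those were 49% for merged HA, 35.5%, 47.9% and 49.7% for replicates 1, 2 and 3, 28.3% for all 3 and 39.2% for none. No difference between roles was tested. PSMA4 had the highest mean fold enrichment of all members, with 10.7, 12.6 and 6.57 in replicates 1, 2 and 3 (9.94 ± 3.07, SD, n = 3). That mean was at percentile 94.5 of the other TSSs with a peak in every replicate. The summits held 88, 90 and 46 fragments and stood at -170, -165 and -159 bp, where negative values are upstream of the TSS, inside a merged region of 556 bp at chr15:78832489-78833044.

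The other alpha genes were called in some replicates. PSMA3 had 5.06 and 4.60 in replicates 1 and 3, and PSMA6 had 4.54 and 5.25 in the same replicates. PSMA5 had 4.52 and 3.83 in replicates 2 and 3, and PSMA7 had 4.61 and 5.67 in those replicates. At PSMA7 the merged region was 2156 bp wide and covered 32.1% of the gene from just inside its 5′ end, with summits at 715 and 852 bp. PSMA1 and PSMA2 had a peak in replicate 3 alone, at 3.56 and 2.89, and no merged peak. The PSMA2 value is the lowest of any member, on a local background of 5 control fragments, and its summit was 48 bp from the TSS of MRPL32.

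The 7 beta subunits of the standard core include its 3 protease sites, PSMB5 (chymotrypsin-like), PSMB6 (caspase-like) and PSMB7 (trypsin-like). All 7 had H3K4me3, 3 had a merged HA peak, and 5 had a peak in no replicate, beside 49% and 39.2% of the other TSSs. Both beta genes with a replicate peak had one in every replicate. PSMB2 had 4.76, 9.06 and 5.00 (6.28 ± 2.42), with its highest summit downstream of the TSS in replicates 1 and 2 and upstream in replicate 3. PSMB3 had 5.73, 6.41 and 5.53 (5.89 ± 0.459), the narrower spread of the 2. Its merged region was the widest at any member, 4774 bp at chr17:36903947-36908720, lay wholly upstream of the gene, and had summits at -923, -949 and -891 bp. The TSS of PCGF2 lay inside the same region, farther from these summits than that of PSMB3. Only peaks within 1 kb of the PSMB3 TSS were scored, so summits nearer to PCGF2 were not looked for. PSMB1 had a merged region of 1331 bp at chr6:170862281-170863611 that overlapped no replicate peak and also lay within 1 kb of the TSS of TBP.

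PSMB4, PSMB5, PSMB6 and PSMB7 had no HA peak in any list. Their H3K4me3 regions in ProMMP2-3xHA cells were 1318, 1126, 518 and 679 bp wide, all below the median of 1562.5 bp over the 46 members. HA was therefore not called at any of the 3 genes for the catalytic subunits of the standard core, a grouping chosen after the values were seen.

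Among the 5 core subunits that are induced or tissue specific, PSMB8, PSMB9 and PSMB10 replace the standard catalytic subunits in the immunoproteasome, and PSMA8 and PSMB11 belong to the testis and the thymus. PSMA8 and PSMB11 had neither H3K4me3 nor HA in any list. PSMB10 had 4.52, 7.58 and 4.59 (5.56 ± 1.75), with a merged region of 1323 bp over 56.1% of the gene. PSMB9 had a merged peak and a peak of 6.27 in replicate 2 alone, whose summit was 126 bp from the TSS of TAP1, a peptide transporter gene that starts on the other side of the same promoter. PSMB8 had H3K4me3 over 1108 bp and no HA peak.

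Of the 6 ATPases of the 19S particle, all had H3K4me3, 4 had a merged HA peak, and 1, PSMC5, had a peak in every replicate. PSMC5 had 7.98, 7.66 and 6.92 (7.52 ± 0.542, percentile 79.6), with summits in its first intron that spanned 15 bp. The TSS of FTSJ3 was 96, 100 and 85 bp from those summits and so lay nearer than that of PSMC5. PSMC6 had 3.91 and 5.06 in replicates 2 and 3. PSMC2 and PSMC3 had a peak in replicate 3 alone, at 3.89 and 3.30, although the merged region at PSMC2 was 3240 bp wide and overlapped peaks of 2 replicates. That region also held the TSS of DNAJC2. PSMC1 and PSMC4 had none.

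The 11 other subunits of the 19S particle all had H3K4me3, 7 had a merged HA peak, and 4, 7 and 9 had a peak in replicates 1, 2 and 3. PSMD8, a subunit of the lid, had 5.12, 8.08 and 8.58 (7.26 ± 1.87, percentile 76.2), with summits in its first coding exon at 276, 319 and 309 bp. PSMD7, which pairs with the deubiquitinase PSMD14 in the lid, had 5.61, 8.64 and 6.78 (7.01 ± 1.53, percentile 73.1), with summits at 97, 117 and 120 bp. PSMD14 itself had 6.15 and 5.36 in replicates 2 and 3. Both partners therefore had HA, on opposite sides of their TSSs, with PSMD14 summits at -206 and -232 bp.

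PSMD2 and PSMD4 encode subunits that bind ubiquitin or its carriers. PSMD2 had 3.73 and 3.56 in replicates 2 and 3, and PSMD4 had 5.16 and 3.78 in replicates 1 and 3. PSMD3 had 5.16 and 5.30 in replicates 2 and 3, and its merged peak of 161 bp, the narrowest at any member, overlapped a peak of 1 replicate. PSMD13 had 4.76 and 4.56 in replicates 1 and 3. PSMD1, PSMD11 and PSMD12 had H3K4me3 and no merged peak: PSMD1 had 4.15 in replicate 3, PSMD11 had 3.71 in replicate 2, and PSMD12 had 3.54 and 4.60 in replicates 2 and 3. PSMD6 had no HA peak in any list.

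PSMD5, PSMD9 and PSMD10 (gankyrin) are chaperones that help to assemble the base of the 19S particle. PSMD5 had 4.45 and 5.53 and PSMD9 had 6.64 and 5.43 in replicates 2 and 3, both with a merged peak, and neither had a peak in replicate 1. PSMD10 had none. The summits at PSMD9 were also 131 and 111 bp from the annotated start of a read-through gene.

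The activators cap the core in place of the 19S particle. PSME1 and PSME2 encode the interferon-induced pair, PSME3 and PSME4 encode nuclear activators, and PSMF1 encodes an inhibitor. All 5 had H3K4me3, 3 had a merged HA peak, and the same 3 had a peak in every replicate. PSME2 had 5.73, 11.9 and 7.19 (8.26 ± 3.2, percentile 86.5), and PSME4 had 6.59, 7.0 and 6.57 (6.72 ± 0.244), the closest agreement between replicates of any member with 3 peaks. Their summits lay on the side of a divergent neighbour: RNF31 was 354, 373 and 344 bp from the summits at PSME2, and ACYP2 was 121, 136 and 131 bp from those at PSME4. PSME3, named after its values were seen, had 4.52, 3.81 and 3.19 (3.84 ± 0.663), the lowest mean of the 12 members and at percentile 3.75, on local backgrounds of 3.38, 4.78 and 3.07 control fragments.

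PSME1 had 4.16 and 5.87 in replicates 1 and 2 and no merged peak within 1 kb. Its highest summits were inside the gene at 976 and 1765 bp, the second belonging to a peak that reached into the window. The merged region there, chr14:24606447-24611284, began 1044 bp past the TSS and covered 61.7% of the gene. PSMF1 had no HA peak in any list.

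The chaperones of the 20S core work as pairs, PSMG1 with PSMG2 and PSMG3 with PSMG4. In each pair 1 gene had HA in every replicate and its partner had none in any list. Of the other TSSs with H3K4me3, 28.3% had HA in every replicate and 39.2% in none. PSMG3 had 5.16, 6.54 and 8.12 (6.61 ± 1.49, percentile 66.9), on 77, 93 and 115 fragments, the most at any member in replicates 2 and 3. PSMG2 had 4.71, 6.40 and 6.85 (5.99 ± 1.13, percentile 53.8), and the TSS of CEP76 was 152, 169 and 150 bp from its summits. PSMG1 and PSMG4 had H3K4me3 over 1434 and 881 bp.

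To determine where HA lay relative to the start of transcription, all summits within 500 bp of a member TSS were placed upstream or downstream of it. Downstream summits made up 66.7% (10 of 15), 59.3% (16 of 27) and 57.9% (22 of 38) in replicates 1, 2 and 3. Their mean was 61.3% ± 4.72 (SD, n = 3). At the other TSSs with H3K4me3 the mean was 58.4% ± 1.73, so the difference was smaller than the spread of the members' share. The median distance of downstream summits was 137, 150.5 and 142.5 bp at members and 131, 139 and 136 bp at the others. The members' share depended on which summits were counted: it was 71.8% for summits within 250 bp and 53.1% for the highest summit of each TSS alone. The centre of the merged region was upstream of the TSS at 18 of the 28 members and downstream at 10. Of those downstream, it was in an intron at 5, in a coding exon at 3 and in a 5′ UTR at 2. Centres were not placed at the other TSSs, so these counts cannot be read as a trait of the members.

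**Figure D3:**
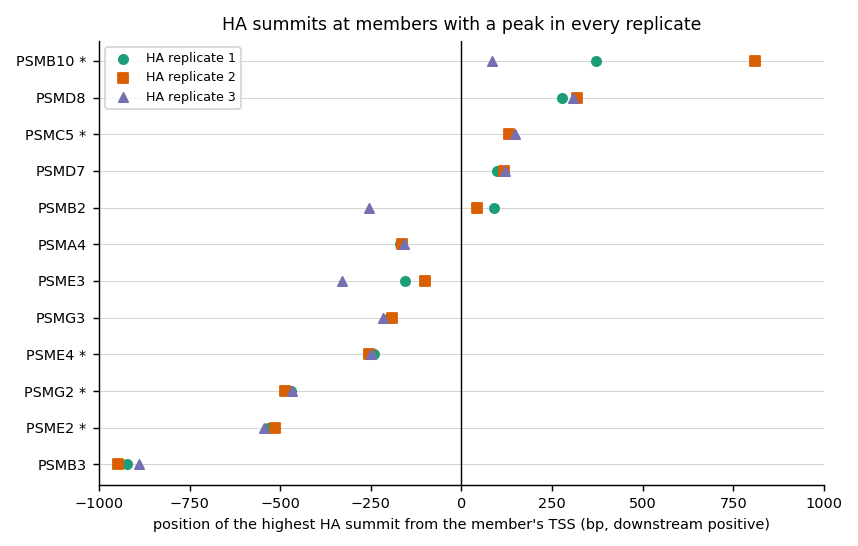
Position of the highest HA summit from the TSS (bp, downstream positive) in each replicate, for the 12 members with a peak in all 3. An asterisk marks members with a summit that lay nearer to the TSS of another protein coding gene; the 3 summits at PSMA4 stand within 11 bp of each other, and those of PSMB10 spread from 83 to 811 bp.

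Several members share a promoter with a divergent or overlapping gene. Among the 33 members with a peak in at least 1 replicate, 7 were never the protein coding gene nearest to their highest summit: PSMA2, PSMB9, PSMC5, PSMD9, PSME2, PSME4 and PSMG2. The member was the nearest gene for 12 of 17, 17 of 24 and 24 of 30 members in replicates 1, 2 and 3. The nearest gene was not scored at the other TSSs, so these counts cannot be read as a trait of the members. Merged HA was found at 8 of the 11 members with another protein coding TSS within 1 kb (72.7%, interval 39 to 94) and at 20 of the 35 without (57.1%, interval 39.4 to 73.7). The other TSSs with H3K4me3 stood at 59% and 46.4%. Which gene of a pair HA belonged to cannot be told apart at these promoters.

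H3K4me3 was present at the same 46 members in both cell lines, 95.8% of the 48 (interval 85.7 to 99.5), beside 60.4% of the other 20115 TSSs in ProMMP2-3xHA cells and 64.2% in WT cells. The U2OS label was checked in the same lists: COL1A1, RUNX2 and SOX9, genes of bone and cartilage, had H3K4me3 in both lines, COL1A2 and TWIST1 did not, and nor did the liver, T cell and leukocyte genes ALB, CD3E and PTPRC. Proteasome promoters thus carried the mark nearly throughout, while HA was found at a share of them.

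H3K4me3 regions were wider at members with HA than at members without, with ranges that overlapped. The median width was 1845 bp (range 1027 to 6395) at the 28 members with a merged HA peak and 1310.5 bp (518 to 2435) at the 18 without. Merged HA was found at 0 of the 5 members whose region was under 1000 bp (PSMB6, PSMB7, PSMD1, PSMD6 and PSMG4), at 16 of 27 (59.3%) from 1000 to 2000 bp and at 12 of 14 (85.7%) above. The other TSSs followed the same order, with 25.4%, 52.1% and 69.8%, and medians of 1681 bp with HA and 1188.5 bp without. In replicate 3, PSMD1 had a peak despite its narrow region.

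The alpha ring genes had regions of 1392 to 2447 bp and the beta ring genes of 518 to 6395 bp, with medians of 2223 and 1318 bp. The GC content of the 500 bp around the TSS had a median of 63.4% at members and 68% at the others, and among members of 63.8% with HA and 61.9% without. The part of H3K4me3 width and base composition in the HA calls was not tested.

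Regions were narrower in ProMMP2-3xHA than in WT cells at 44 of the 46 members (95.7%), with a median ratio of widths of 0.814, beside 93.1% and 0.782 at the other TSSs. The ratio was 0.807 at the members with HA and 0.836 at those without, whereas at the other TSSs the order was the opposite, 0.811 with HA and 0.746 without. PSMD6 had the lowest ratio, 0.386, with 584 bp in ProMMP2-3xHA and 1511 bp in WT cells, and PSMD8 had 1027 and 1903 bp. PSMD11 and PSME1 were the 2 exceptions, with 1873 against 1824 bp and 1303 against 1242 bp. With 1 library of unknown depth for each line, the cell line and the library cannot be told apart, and no test was possible.

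**Figure D4:**
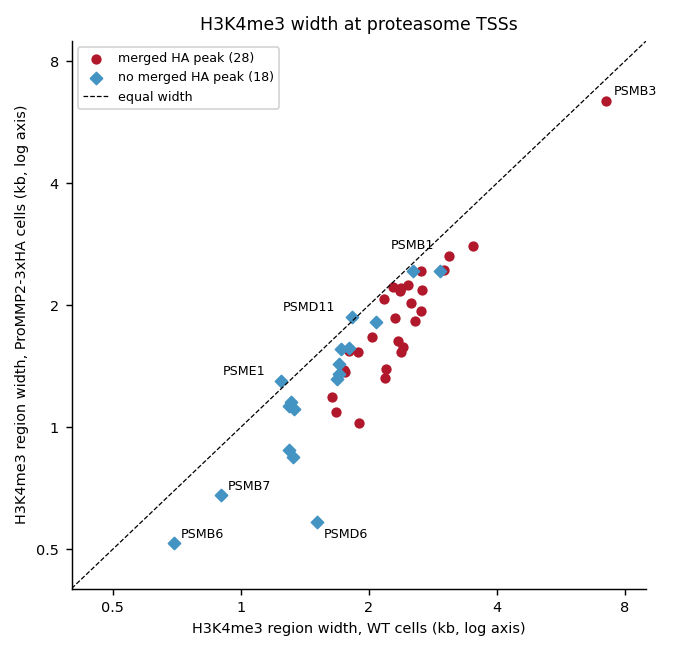
Width of the H3K4me3 region at each of the 46 members in WT cells (horizontal) and ProMMP2-3xHA cells (vertical), in kb on log axes, with the dashed line at equal width. Red circles had a merged HA peak and blue diamonds had none; 44 of 46 points lie below the line, and the 5 regions under 1 kb in ProMMP2-3xHA cells are all blue.

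The promoters of the members, from 250 bases before to 50 after the TSS, were searched on both strands for 6 short motifs. The core of the antioxidant response element, TGACNNNGC, was present in 14 of 48 (29.2%, interval 17 to 44.1), beside 14% of the 20115 other promoters and 14.9% of the 12147 with H3K4me3. The ETS core CCGGAA was present in 25 (52.1%, interval 37.2 to 66.7), beside 22.5% of all other promoters and 31.6% of those with H3K4me3. CCAAT was found in 20 (41.7%), beside 35.9% and 36.2%. The GC box GGGCGG was found in 33 (68.8%), a share above that of all other promoters (60.9%) and below that of those with H3K4me3 (77%). TGCGCA and TATAAA were found in 5 each (10.4%), beside 10.8% and 9.8% of all other promoters and 14.4% and 4.46% of those with H3K4me3. Matches are letters in a window and were not tested as binding sites.

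The TGACNNNGC core was found in 8 of the 28 members with a merged HA peak and in 6 of the 18 without, and CCGGAA in 15 of 28 and 9 of 18. CCAAT was found in 15 of 28 and 4 of 18, GGGCGG in 19 and 13, TGCGCA in 3 and 2, and TATAAA in 3 and 1. The other TSSs were not split by HA in this way, and no difference was tested. The matches to TGACNNNGC were spread over the roles: PSMA7 held 3 of them, PSMB3, PSMB6 and PSMB9 held 1 each, and PSMC4, PSMD1, PSMD3, PSMD5, PSMD9, PSMD12, PSME1, PSME2, PSME4 and PSMG1 made up the rest. In the wider window of 500 bases on either side of the TSS the core was found in 64.6% of member promoters and 34.2% of the others.

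Genes of the same pathway that the symbols do not cover were scored in the same way. All 25 had H3K4me3, 14 had a merged HA peak (56%, interval 34.9 to 75.6), 7 had a peak in every replicate (28%) and 9 in none. These shares were near the 49%, 28.3% and 39.2% of the other TSSs with H3K4me3 given above. The polyubiquitin gene UBB had 6.81, 15.1 and 4.01 (8.63 ± 5.75). VCP, an unfoldase that extracts substrates, had 5.43, 5.81 and 5.44 (5.56 ± 0.214). NFE2L1 had 4.97, 4.43 and 5.27 (4.89 ± 0.424), and its relative NFE2L2 had a mean of 6.63 ± 0.546. POMP, the chaperone of the late core, and SEM1, a small subunit of the 19S particle, had no HA peak in any list.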

How the data were processed

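nChIP-Seq peak lists of U2OS cells were analysed. According to their methods and processing notes, the authors trimmed reads (Trim Galore 0.6.0), aligned pairs to GRCh37 (Bowtie2 2.3.5.1), kept mapping quality 30 or more (SAMtools 1.9), removed duplicates (Picard) and called peaks with MACS2 3.0.0a6 at a q-value of 0.05 and a minimum length of 147 bp. The deposited lists of the HA replicates are narrow peaks called against an HA control, with a fold enrichment (a ratio), a −log10 p-value, a −log10 q-value and a score for each summit. In the deposited merged HA list and both deposited H3K4me3 lists the authors had combined narrow and broad calls into intervals with no value, which widens regions. No columns of other samples were used.

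Genes came from GENCODE version 44 on GRCh37, the build of the lists. The TSS was that of the canonical transcript, or the gene's 5′ end for 282 genes without one. A peak counted when it lay within 1 kb, and the highest fold enrichment was taken for each replicate. The files give no read counts: fragments at summits and the ratio of HA to control depth (3.57, 2.81 and 3.00) were recovered from the fold enrichment and p-value for 98.6%, 99% and 97.6% of summits, and for 70 of the 71 at members. Recovery was tested on values simulated from the formulas for fold enrichment and p-value that it inverts. That test does not show whether the deposited values follow these formulas. The window search was tested against bedtools 2.31.1. Python 3.11.15, numpy 2.4.6, pandas 2.3.3 and scipy 1.17.1 were used.

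Shares carry 95% exact (Clopper-Pearson) intervals and replicate means their SD. No hypothesis test was run. The members and the lists of roles, pathway genes and motifs were chosen with earlier results of these data known. Values are given for the 2 strongest members of each role with a peak in every replicate, every member without H3K4me3 or without a merged peak, every member with a merged peak seen in fewer than 3 replicates, and the widest merged region. Alternatives changed the window, the TSS, the H3K4me3 list, the HA list, the q-value, the summits counted and the replicates. Peaks of the WT HA library were not used here. Values of some genes on the lists are not reported here.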

Additional observations from a re-analysis of the deposited data

How the results depend on the processing

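None of 53 recalculations of 7 results changed direction. The shares of members with merged HA, with HA in all 3 replicates and with the motif had no reference value. A change of direction was therefore not possible for those shares. The merged share of members, 60.9%, became 37% with the list of replicate 1 and otherwise stayed between 52.2% and 65.2%. The share with HA in every replicate counted, 26.1% with all 3, was 28.3% to 45.7% when 1 replicate was left out, the highest without replicate 1. By definition such a share cannot fall when a replicate is left out. Other settings gave 21.7% to 26.1%. At a q-value of 0.001 the fold enrichment ratio was 1.00. Summits downstream made up 68.3% from the gene's 5′ end, 53.1% for the highest summit alone, 55.5% within 1 kb and 71.8% within 250 bp. The motif TGACNNNGC was in 64.6% of promoters in the wider window. The margin of members over other TSSs, 11.8 percentage points, fell to 1.43 with the list of replicate 1 and reached 15.5 with that of replicate 3. With TSSs that have another within 1 kb left out, an alternative chosen after seeing the data, 57.1% of members had merged HA, 10.7 points above the others, and 22.9% had it in all 3 replicates. The merged regions of PSMB1, PSMB3, PSMB10 and PSMC2 stayed in that count although each lay within 1 kb of another TSS. No paired analysis was possible because only the HA group of ProMMP2-3xHA cells has more than 1 replicate. Summits at members rest on 27 to 115 fragments, and the part of depth in the calls was not tested.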
